A study of Mus musculus with 12 samples.

Results

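The tenascins are represented by 2 of the 420 genes measured, Tnc and Tnxb, which encode tenascin-C and tenascin-X. Both genes were chosen by name with their normalized counts in these same libraries already known, so what follows describes their levels and places them in the fit of the whole panel, and does not test them independently. Pancreatic stellate cells (PSCs), the fibroblast-like cells that deposit much of the stroma of pancreatic tumors, were isolated from 1 male Rosa26CreERT2 PKN2 fl/fl mouse on a C57BL/6 background and immortalized with SV40 large T antigen. The PKN2 KO cells were obtained by a short exposure to 4-hydroxytamoxifen, which switches on a Cre that the Rosa26 locus drives in all cells, while the wild-type (WT) cells kept the floxed alleles, and whether they too received the drug is not stated in the sources used here. There were 4 groups of 3 libraries, lettered A to C: WT and PKN2 KO cells, each with vehicle and with TGF-β1 at 5 ng/ml, harvested after 72 h. The sources disagree on what the 3 libraries of a group are. The methods describe cells of 1 mouse and call the n of their cell culture work biological replicates. For this panel they give at least 3 dishes of WT and 4 of PKN2 KO cells per condition, without saying how dishes became libraries. The series text speaks of 3 lines per genotype, and neither source says what a letter marks. The errors and p-values below therefore measure the spread between these samples, and whether that spread is between lines, between cultures or technical cannot be told apart here.

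RNA was read by targeted amplicon sequencing of extracellular matrix (ECM) and cell adhesion genes, and each library held between 1074095 and 1473153 reads. Values are normalized counts, in which the authors divided the reads of a library by 1 factor, so that 1 read was worth between 0.676 and 1.37 normalized counts. Neither Pkn2 nor the stellate cell genes Acta2, Des and Gfap were on the panel, so the deletion was not examined here. Col1a1, a collagen I chain of fibroblasts, had 137951 to 243709 reads in every library, whereas the fibroblast proteoglycan genes Dcn and Lum had at most 52 and 5. Endothelial, epithelial, leukocyte and neural marker genes had at most 22, 28, 34 and 9 reads in any library.

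Tenascins are large matrix glycoproteins built from EGF-like repeats, fibronectin type III repeats and a fibrinogen-like globe. Tenascin-C is a matricellular protein that is sparse in most resting adult tissue, appears in wounds, fibrosis and tumor stroma, and signals through integrins and other receptors. Tenascin-X binds collagen fibrils and the proteoglycan decorin in loose connective tissue, and its loss in people causes a form of Ehlers-Danlos syndrome with lax skin and joints.

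In the GENCODE M21 annotation of GRCm38 (mm10), Tnc (ENSMUSG00000028364) lies on the minus strand at chr4:63959785-64047015 and has 4 transcripts of up to 26 exons. The noncoding transcript 8030451A03Rik runs over 67162 of its bases on the other strand. Tnxb (ENSMUSG00000033327) lies on the plus strand at chr17:34670535-34719815 and has 2 transcripts of up to 41 exons, with the small nuclear RNA gene Gm24389 inside it and the pseudogene Cyp21a2-ps sharing its last 3 bases, both on the minus strand. The sources used here do not say whether counting used the strand or where the amplicons lie, so reads of a gene and of an antisense neighbor cannot be told apart. The 250 bases before each start site are shown because these 2 genes moved in opposite directions under TGF-β1, and because the study's reporters addressed SMAD, TEAD and SRF, whose motifs can be looked for there. They come from RefSeq promoter windows on GRCm38.p6 and read 5′ to 3′ on the strand of the gene, with the matches in capitals.
Tnc promoter, chr4:64047016-64047265, minus strand: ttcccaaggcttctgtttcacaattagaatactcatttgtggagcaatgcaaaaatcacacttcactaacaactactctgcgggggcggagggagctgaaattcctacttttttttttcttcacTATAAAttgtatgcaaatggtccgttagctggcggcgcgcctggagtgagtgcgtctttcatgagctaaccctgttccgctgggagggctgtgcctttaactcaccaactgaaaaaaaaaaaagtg
Tnxb promoter, chr17:34670285-34670534, plus strand: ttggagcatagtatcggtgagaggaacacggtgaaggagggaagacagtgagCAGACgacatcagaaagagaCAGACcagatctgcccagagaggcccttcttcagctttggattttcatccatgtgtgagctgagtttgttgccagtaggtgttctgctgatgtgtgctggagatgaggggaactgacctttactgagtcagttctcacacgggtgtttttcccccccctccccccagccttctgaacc
Both strands were searched for the palindromic SMAD element GTCTAGAC, the shorter SMAD site CAGAC, the TEAD site GGAATG, the TATA box TATAAA and the CArG box of SRF. A CArG box can contain TATAAA, but neither window held a CArG box. The Tnc window held 1 match, TATAAA at bases 125 to 130, counted from the first base printed. That match begins 126 bases before the start site. The Tnxb window held 2 matches, both CAGAC, at bases 53 to 57 and 73 to 77. Of all 32851 promoter windows of the same length, 12.4% held TATAAA, 42.2% CAGAC, 12.6% GGAATG, 1.47% a CArG box and 0.167% GTCTAGAC. RefSeq also lists a second window for Tnc, and these matches describe letters, not bound sites.

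Tnc rose and Tnxb fell under TGF-β1 in both genotypes, and these were the largest differences of either gene. Tnc increased 9.17-fold in WT PSCs and 9.75-fold in PKN2 KO PSCs by the ratio of mean normalized counts. Tnxb had between 88 and 211 reads per library with vehicle and 5 or fewer with TGF-β1. Between genotypes, the Tnc values overlapped, whereas Tnxb was higher in every PKN2 KO library than in every WT library of the same treatment, with very few reads behind the difference after TGF-β1. How often other genes tested separated in this way was not counted, so this only describes the libraries. The plot of levels by library shows both genes on 1 scale.

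**Figure D1:**
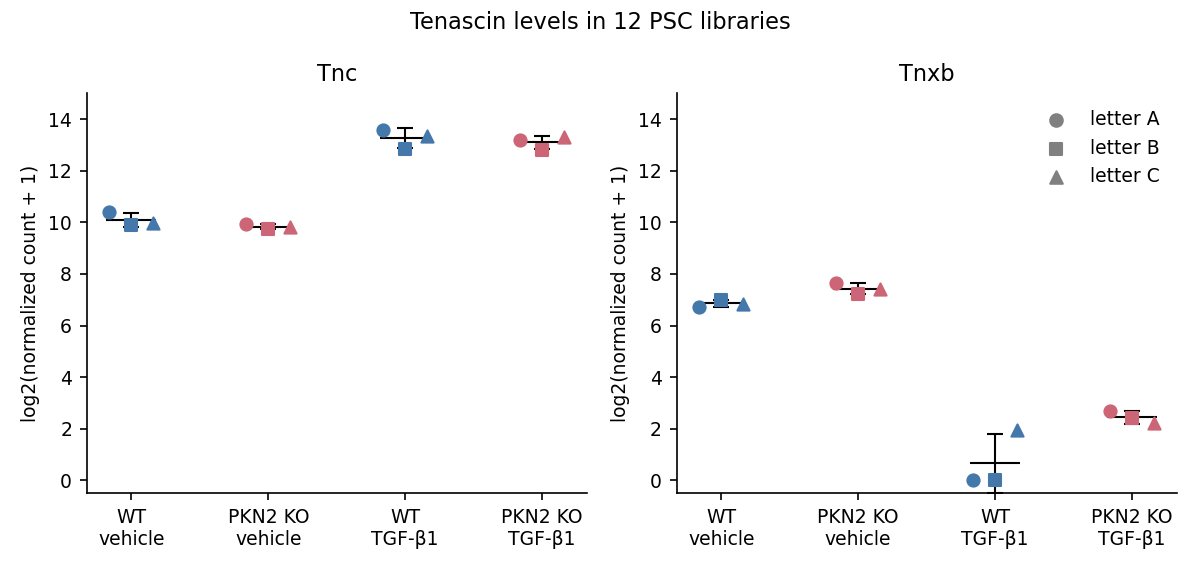
Levels of Tnc (left) and Tnxb (right) as log2(normalized count + 1) in 12 libraries, 3 in each of 4 groups on the x axis; points are libraries (circle A, square B, triangle C; blue WT, red PKN2 KO), and the black line and bar are the mean and SD. Tnc libraries with TGF-β1 sit above all vehicle libraries, Tnxb libraries with TGF-β1 sit below them, and 2 WT libraries with TGF-β1 are at 0 for Tnxb.

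In WT PSCs with vehicle, Tnc measured 1341, 944 and 1014 normalized counts in libraries A, B and C, a mean of 1099 ± 212 (SD, n = 3). In PKN2 KO PSCs with vehicle it measured 973, 858 and 909, a mean of 913 ± 57.6 (SD, n = 3). Library A of the WT cells was the high one, library C also lay above all PKN2 KO libraries, and library B lay within their range. The difference in log2(normalized count + 1), PKN2 KO minus WT, was -0.25 ± 0.22 (SE), with a 95% interval from -0.73 to 0.23. Tnc was not among the 33 genes called in this comparison, 13.9% of the 238 tested, where called means an adjusted p under 0.05 in the limma fit of all 12 libraries. Tnxb was not among them either, so 0 of the 2 tenascins were called. The panel leaned upward in PKN2 KO cells here, with a median difference of 0.21 over all genes tested, and relative to that median Tnc stood at -0.46. That median depends on the scaling, and it moved by -0.23 when the authors' factors were replaced by median of ratios factors.

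With TGF-β1, Tnc measured 12394, 7281 and 10562 normalized counts in WT libraries A, B and C, a mean of 10079 ± 2591 (SD, n = 3). In PKN2 KO libraries it measured 9382, 7171 and 10162, a mean of 8905 ± 1552 (SD, n = 3). Library B was the low one in both genotypes, and the groups overlapped. The PKN2 KO minus WT difference was -0.16 ± 0.22 (SE) on the log2 scale, with a 95% interval from -0.64 to 0.32. Without WT library A it was 0.0066, while the differences between libraries of the same letter were -0.40, -0.02 and -0.06. In this comparison 36 genes, 15.1% of those tested, were called, and Tnc was not one of them.

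Tnc rose with TGF-β1 in both genotypes. In WT PSCs its log2 difference, TGF-β1 minus vehicle, was 3.18, with a 95% interval from 2.70 to 3.66, and the differences between libraries of the same letter were 3.21, 2.95 and 3.38. In PKN2 KO PSCs it was 3.27, with a 95% interval from 2.79 to 3.75, and the same-letter differences were 3.27, 3.06 and 3.48. No vehicle library overlapped a TGF-β1 library in either genotype, but how many of all genes tested separated in this way was not counted. This was the 10th largest rise of the panel in WT cells and the 7th in PKN2 KO cells. TGF-β1 called 121 genes in WT cells, 50.8% of those tested, and 116 in PKN2 KO cells, 48.7%. Both tenascins were among them each time, Tnc as higher and Tnxb as lower. Tnxb reached the 10 normalized counts needed for testing only with vehicle, so its call as lower adds no support. Tnc took 0.0961% of all panel reads in WT cells with vehicle and 0.734% with TGF-β1, and in PKN2 KO cells 0.0782% and 0.653%. The interaction, the PKN2 KO response minus the WT response, was 0.09 ± 0.32 (SE), with a 95% interval from -0.59 to 0.77, which spans a difference in either direction. The interaction called 8 genes, 3.36% of those tested, and 0 of the 2 tenascins.

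Tnxb was a gene of modest counts before treatment. In WT PSCs with vehicle it measured 104, 128 and 114 normalized counts in libraries A, B and C, from 88, 189 and 116 reads, a mean of 115 ± 12.0 (SD, n = 3). In PKN2 KO PSCs with vehicle it measured 200.4, 149 and 171, from 171, 211 and 161 reads, a mean of 173 ± 25.8 (SD, n = 3). The groups did not overlap, and in both genotypes library B lay nearest to the other group. How many of all genes tested had groups that did not overlap was not counted, so nothing is read from this separation. The mean was 1.50-fold higher in PKN2 KO cells. The log2 difference was 0.58 ± 0.47 (SE), with a 95% interval from -0.42 to 1.58, and relative to the panel median it was 0.37. The SD of the 3 log2 values was 0.15 in WT and 0.21 in PKN2 KO cells with vehicle, but 1.13 in WT cells with TGF-β1, and the fit gives a gene 1 spread for all 4 groups. In bulk samples such as these, fewer cells expressing a gene and less RNA per cell cannot be told apart.

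After TGF-β1, Tnxb was close to undetected. WT libraries A, B and C held 0, 0 and 3 reads, or 0, 0 and 2.88 normalized counts. PKN2 KO libraries held 4, 5 and 3 reads, or 5.47, 4.30 and 3.66 normalized counts, a mean of 4.48 ± 0.918 (SD, n = 3). Library C had 3 reads in both genotypes, and it was the factors of the libraries that separated those values. Over the groups, 12 reads in PKN2 KO cells stood against 3 in WT cells, a ratio of 4.65 per normalized depth with an exact 95% counting interval from 1.25 to 25.7, which covers counting error only. The log2 difference was 1.79, with a 95% interval from 0.79 to 2.79, and Tnxb was 1 of the 36 genes called (adjusted p = 0.016, limma). It entered this fit only through the vehicle groups, since none of the 6 libraries with TGF-β1 reached the minimum of 10 normalized counts, and the spread it was held against comes from all 4 groups, so nothing is read from this call. The call was lost with edgeR (adjusted p = 0.097) and with DESeq2 (adjusted p = 0.088), with a pseudocount of 5 (adjusted p = 0.080, limma), and without WT library A, WT library B or PKN2 KO library A, with adjusted p = 0.059, 0.074 and 0.055 in limma. At a depth that gives this gene 0 to 5 reads per library, the size of the genotype difference was not resolved.

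Tnxb fell under TGF-β1 in both genotypes, and no vehicle library overlapped a TGF-β1 library. How often other genes separated between treatments was not counted, so this separation is a description only. In WT PSCs the level was 124-fold lower by reads, with an exact 95% counting interval from 42.0 to 602. In PKN2 KO PSCs it was 38.2-fold lower, with an interval from 21.7 to 74.4. On the log2(normalized count + 1) scale, which understates changes of genes this low, the differences were -6.20 (95% interval from -7.20 to -5.21) and -5.00 (from -5.99 to -4.00). They were the 3rd and the 5th largest falls of the panel. Same-letter differences were -6.71, -7.01 and -4.89 in WT cells and -4.96, -4.82 and -5.20 in PKN2 KO cells, so library C of the WT cells fell least among the WT pairs. The interaction was 1.21 ± 0.66 (SE), with a 95% interval from -0.20 to 2.62, and Tnxb was not called.

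**Figure D2:**
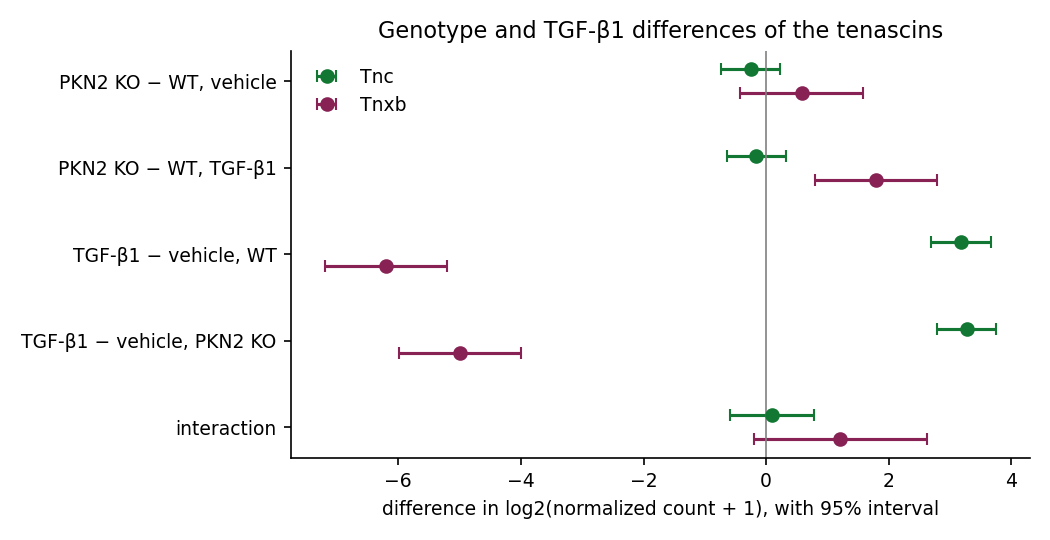
Difference in log2(normalized count + 1) of Tnc (green) and Tnxb (purple) on the x axis for the 5 comparisons on the y axis; points are limma estimates from 12 libraries and bars their 95% intervals. The TGF-β1 intervals of Tnc start at 2.70 or higher and those of Tnxb end at -4.00 or lower. Among the genotype and interaction intervals only that of Tnxb with TGF-β1 excludes 0. It rests on 0 to 5 reads per library and on a spread shared with the vehicle groups, so nothing is read from it.

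The count of Tnxb reads per 1000 Tnc reads within a library does not depend on the scaling factor, and since amplicons of different genes amplify unequally only its change between libraries can be read. It was 77.5, 135 and 113 in WT libraries A, B and C with vehicle. In PKN2 KO libraries with vehicle it was 206, 174 and 188. With TGF-β1 it was 0, 0 and 0.273 in WT cells and 0.583, 0.600 and 0.360 in PKN2 KO cells. All 6 values with TGF-β1 were under 1, and the 2 zeros allow up to 0.351 and 0.401 (exact 95% upper bounds), next to 0.360 in the lowest PKN2 KO library.

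**Figure D3:**
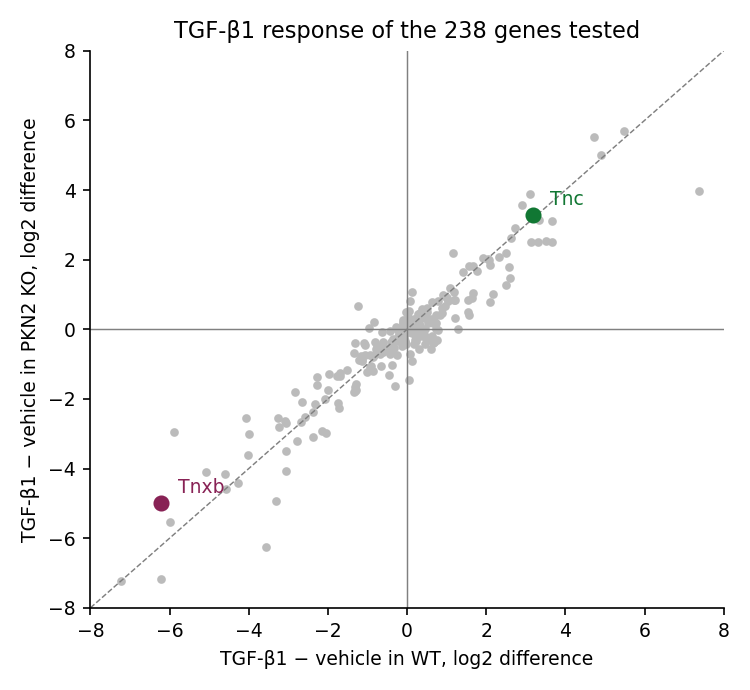
Log2 difference TGF-β1 minus vehicle in WT PSCs (x axis) and PKN2 KO PSCs (y axis) for the 238 genes tested (grey), with Tnc (green) and Tnxb (purple) enlarged; the dashed line marks equal differences. Tnc lies near the line at 3.18 and 3.27, and Tnxb at -6.20 and -5.00 lies among the largest falls.

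Among the other genes tested, the pattern of Tnc over the 12 libraries was most like that of Alcam, an immunoglobulin-type adhesion molecule (r = 0.993), Plod2, a collagen lysyl hydroxylase (r = 0.989), Col5a3, a collagen V chain (r = 0.985), Flrt2, a leucine-rich transmembrane protein (r = 0.985), and Adamts4, an aggrecan-cleaving protease (r = 0.983). Alcam rose with TGF-β1 from a mean of 499.6 to 3311 normalized counts in WT cells and from 483 to 3649 in PKN2 KO cells. The least like Tnc were the ADAMTS-like gene Adamtsl4 (r = -0.982), the protocadherin gene Pcdh9 (r = -0.971) and the adhesion gene Amigo2 (r = -0.971). With TGF-β1, Pcdh9 had mean counts of only 2.48 in WT and 3.56 in PKN2 KO cells, and Amigo2 0.920 and 0.287. The pattern of Tnxb was most like that of the galectin gene Lgals3 (r = 0.972), Adamtsl4 (r = 0.966), the basement membrane collagen gene Col4a5 (r = 0.966), the integrin gene Itgb7 (r = 0.957) and the galectin gene Lgals9 (r = 0.948). Lgals3 had mean counts of 13479 in WT and 17372 in PKN2 KO cells with vehicle, and 2796 and 5712 with TGF-β1. The least like Tnxb were Flrt2 (r = -0.977), Tnc itself (r = -0.957) and the gelatinase gene Mmp9 (r = -0.956). With vehicle, Mmp9 had mean counts of only 0.329 in WT and 1.25 in PKN2 KO cells. These are Pearson correlations of log2 values that share the same 12 libraries and the same 2 treatments, and are a description only.

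Around tenascin-C, the integrin subunits that can receive its signal included several that rose with TGF-β1. Of 8 such genes on the panel 7 were tested, and in WT PSCs 5 were called higher (Itgav, Itgb3, Itgb1, Itga7 and Itga2) and 0 lower, with a median log2 difference of 1.19, next to 57 higher and 64 lower (50.8% of 238 called) and a median of 0.00 over all genes. In PKN2 KO PSCs 4 were called higher (Itgb3, Itgb1, Itga7 and Itga2) and 2 lower (Itga9 and Itga8), with a median of 1.08, next to 47 higher and 69 lower (48.7% called) and a median of -0.14 over all genes. Itga2 passed the filter on low values only through the TGF-β1 groups, with at most 9 reads in a vehicle library, and Itga9 only through the vehicle groups, with at most 8 reads in a TGF-β1 library. Both genes are included in these counts and medians, but the calls of Itga2 as higher and of Itga9 as lower add no support. Itgb3, the partner of the αv subunit, had a mean of 42.8 ± 24.2 normalized counts in WT cells with vehicle and 472 ± 175 with TGF-β1, a log2 difference of 3.50 (adjusted p = 1.60e-06, limma). In PKN2 KO cells it went from 95.9 ± 22.5 to 573 ± 207, a log2 difference of 2.53 (adjusted p = 5.23e-05, limma). Itgb1, the common beta subunit, rose by 1.19 in WT and 1.08 in PKN2 KO cells (adjusted p = 0.0040 and 0.0085, limma). Itgav rose by 0.83 in WT cells (adjusted p = 0.030, limma), and its value in PKN2 KO cells was 0.40 (adjusted p = 0.31, limma). Between genotypes 2 of the 7, Itgb3 and Itga7, were called higher in PKN2 KO cells with vehicle, by 1.25 and 1.60 on the log2 scale (adjusted p = 0.038 and 0.0011, limma). Over all genes tested, 26 were called higher and 7 lower with vehicle (13.9%). With TGF-β1 0 of the 7 were called, next to 15.1% of all genes tested. The interaction called 0, next to 3.36%, so none of these responses was shown to differ between genotypes. Several of these calls were near the threshold: that of Itgb3 with vehicle was lost in 10 of 21 alternatives (adjusted p up to 0.16), including those without WT library B or C or any PKN2 KO library, and that of Itgav in WT cells without vehicle library B or C or TGF-β1 library A or C (up to 0.12). In PKN2 KO cells the call of Itga9 was lost without vehicle library A or C or TGF-β1 library B or C (up to 0.14), and that of Itga8 without vehicle library C or TGF-β1 library B (up to 0.062).

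Of 6 matrix partners of tenascin-C, 3 passed the filter on low values. The fibronectin gene Fn1, to which tenascin-C binds, was not called in any comparison, with log2 differences under TGF-β1 of 0.45 in WT and -0.18 in PKN2 KO cells. Postn, encoding periostin, and Vcan, encoding the proteoglycan versican, rose in WT cells by 0.96 and 0.72 (adjusted p = 0.0089 and 0.013, limma). In PKN2 KO cells their values were 0.65 and 0.18 (adjusted p = 0.066 and 0.55, limma), and the interaction called neither. The call of Vcan was lost without vehicle library B or C or TGF-β1 library C of the WT cells (adjusted p up to 0.060, limma). Of 3 proteases that cut tenascin-C only Mmp2 was tested, with log2 differences under TGF-β1 of 0.28 in WT and 0.44 in PKN2 KO cells and no call in any comparison.

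**Figure D4:**
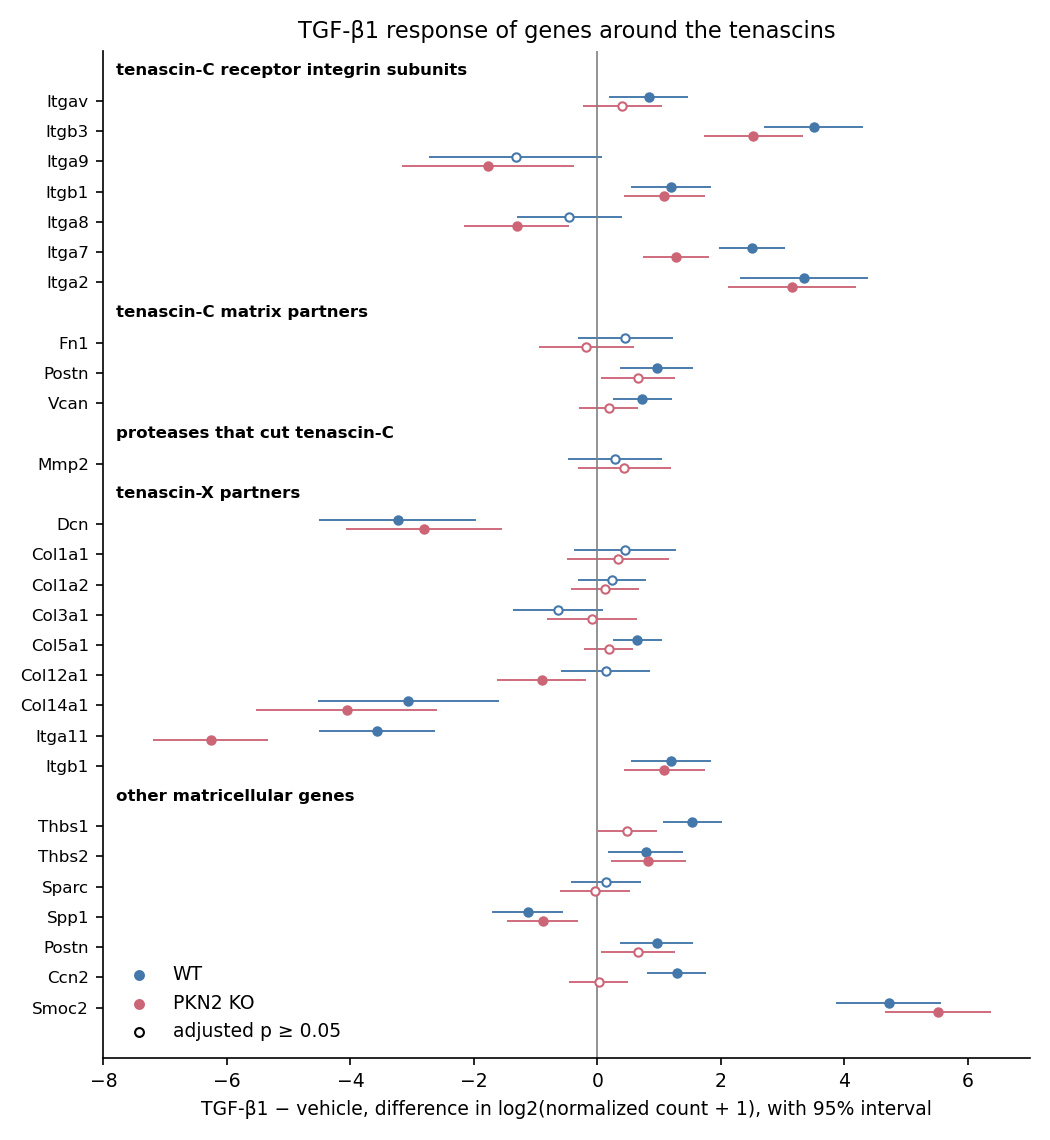
Log2 difference TGF-β1 minus vehicle (x axis) in WT (blue) and PKN2 KO (red) PSCs for the tested genes of 5 lists around the tenascins (y axis); points are limma estimates from 12 libraries, bars 95% intervals, open points adjusted p of 0.05 or more, and Itgb1 and Postn stand in 2 lists each. Itgb3, Itga7, Smoc2 and, with at most 9 reads in any vehicle library, Itga2 lie farthest to the right. Dcn, Col14a1 and Itga11, with at most 9 reads in any TGF-β1 library, lie farthest to the left.

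Partners of tenascin-X were called at about the rate of the panel under TGF-β1, with Dcn, Col14a1 and Itga11 counted, whose calls add no support. All 9 on the panel were tested, and TGF-β1 in WT cells called 2 higher (Col5a1 and Itgb1) and 3 lower (Dcn, Col14a1 and Itga11), with a median of 0.14, next to 50.8% called and a median of 0.00 over all genes. In PKN2 KO cells it called 1 higher (Itgb1) and 4 lower (Dcn, Col12a1, Col14a1 and Itga11), with a median of -0.08, next to 48.7% called and a median of -0.14. Col1a1 and Col1a2, the chains of the collagen I fibrils that tenascin-X joins, were not called, with differences of 0.44 and 0.23 in WT and 0.33 and 0.12 in PKN2 KO cells. The 3 genes lower in both genotypes were picked out after their values were seen. All 3 passed the filter on low values only through the vehicle groups, so nothing is read from their calls as lower. Dcn, the decorin gene, had 9 to 33 reads in WT and 22 to 52 in PKN2 KO libraries with vehicle, and 1 in each WT and 2 to 4 in each PKN2 KO library with TGF-β1. Col14a1, a fibril-associated collagen, had 2 to 17 and 17 to 25 reads with vehicle, and with TGF-β1 1 read in 1 of the 6 libraries. Itga11, a collagen-binding integrin subunit, had 108, 112 and 113 reads in WT libraries A, B and C with vehicle and 142, 221 and 129 in PKN2 KO libraries. With TGF-β1 it had 8, 7 and 9 reads in WT and 0, 3 and 1 in PKN2 KO libraries. It was the 1 gene of this list called lower in PKN2 KO than WT cells with TGF-β1 (-2.12, adjusted p = 0.0028, limma) and the 1 called for the interaction (-2.69, adjusted p = 0.026, limma), and both calls rest on these few reads. With vehicle 0 of the 9 were called between genotypes. Over all genes tested, 13.9% were called with vehicle, 15.1% with TGF-β1 and 3.36% for the interaction. The interaction call of Itga11 was lost in 10 of 25 alternatives, with adjusted p up to 0.088; these were the scalings by total count, with and without the top genes, and leaving out any library but WT vehicle A, WT TGF-β1 B, and PKN2 KO TGF-β1 A or B. The call of Col12a1 in PKN2 KO cells was lost without a variance trend and without vehicle library A or C or TGF-β1 library B or C (up to 0.16).

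Of 7 other matricellular genes, all tested, 5 were called higher with TGF-β1 in WT cells (Thbs1, Thbs2, Postn, Ccn2 and Smoc2) and 1 lower (Spp1), with a median of 0.96, next to 50.8% called and a median of 0.00 over all genes. In PKN2 KO cells 2 were called higher (Thbs2 and Smoc2) and 1 lower (Spp1), with a median of 0.49, next to 48.7% called and a median of -0.14. Sparc, encoding the collagen-binding protein osteonectin, was not called, with differences of 0.14 and -0.04. Ccn2, encoding connective tissue growth factor, rose from a mean of 22479 to 53926 normalized counts in WT cells, a log2 difference of 1.28, whereas in PKN2 KO cells the difference was 0.02. Its interaction was -1.26 (adjusted p = 0.039, limma), the 1 call among these 7, next to 0.09 for Tnc. Between genotypes with TGF-β1, Smoc2 was called higher in PKN2 KO cells and Thbs1 and Ccn2 lower, and with vehicle 0 were called. Over all genes tested, 21 were called higher and 15 lower with TGF-β1 (15.1%). The panel shares were 13.9% with vehicle and 3.36% for the interaction. The interaction call of Ccn2 was lost in 14 of 26 alternatives, with adjusted p up to 0.13, and leaving out any library but WT TGF-β1 B or PKN2 KO TGF-β1 A was among them. The call of Smoc2 between genotypes was lost without any of the TGF-β1 libraries but PKN2 KO B (up to 0.14), and that of Thbs1 without WT library A or C (up to 0.064 over all alternatives). Under TGF-β1, the calls of Thbs2 were lost in 4 of 21 alternatives in each genotype (up to 0.12), without vehicle library B or C or TGF-β1 library A or C of the WT cells and without vehicle library A or B or TGF-β1 library A or C of the PKN2 KO cells. That of Spp1 in PKN2 KO cells was lost without vehicle library C or TGF-β1 library B (up to 0.061). All of these called differences kept their direction.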

How the data were processed

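The authors sequenced a 420-gene targeted panel from 12 PSC libraries. The submitters' processing notes name STAR, DESeq2 1.32 and mm10, while the methods name the panel maker's pipeline; how molecular identifiers were used is not given in the sources used here. The deposited raw table holds counts of reads per gene. The deposited normalized tables hold a signal, the reads divided by 1 factor per library. Of the raw columns, 6 carry a repeated group name and were not used; all 12 libraries were taken from the normalized tables, whose values gave whole reads (100% within 0.001) equal to the 6 other raw columns for all 420 genes. Identifiers were named for all 420 genes, and 77 had no read.

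Genes with at least 10 normalized counts in at least 3 libraries (238) were fitted in limma 3.58.1 (R 4.3.3) on log2(normalized count + 1), with 4 group means, a variance trend and robust shrinkage, and p-values were adjusted by Benjamini-Hochberg over all 238. The fit was tested on simulated data. Exact counting intervals are conditional Poisson intervals and cover counting error only. Alternatives were edgeR 4.0.16, DESeq2 1.42.0, other scalings, pseudocounts, filters, sample sets, a replicate block and leaving out libraries. Named were both tenascins, of each list the 3 genes with the highest mean count, and the 5 most and 3 least correlated genes; other genes were named after their values were seen. The members and the lists were chosen with earlier results of these data known.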

Additional observations from a re-analysis of the deposited data

How the results depend on the processing

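The rise of Tnc and the fall of Tnxb under TGF-β1 kept their direction and their call in every alternative run. For Tnxb, which reached 10 normalized counts only with vehicle, the call is a description and adds no support to the fall in reads. Over the alternatives that kept all libraries of a comparison, Tnc ranged from 2.92 to 3.20 in WT and from 3.07 to 3.34 in PKN2 KO cells, and Tnxb from -6.93 to -4.37 and from -5.29 to -4.23, all on the log2 scale. With 1 library left out, Tnc ranged from 3.01 to 3.40 and 3.17 to 3.42, and Tnxb from -6.86 to -5.88 and -5.12 to -4.89. A filter of 10 normalized counts in every library removed Tnxb and gave no value for it.

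The genotype differences were less settled. Tnc with vehicle was called only when libraries were scaled to their total after removing the 10 highest genes (-0.41, adjusted p = 0.041, limma), and ranged from -0.35 to -0.10 with 1 library left out. Tnc with TGF-β1 ranged from -0.38 to 0.0066 with 1 library left out, and its interaction from -0.12 to 0.26, turning negative without WT vehicle library A (-0.06), WT TGF-β1 library B (-0.12) or PKN2 KO TGF-β1 library C (-0.011). Tnxb with TGF-β1 was higher in PKN2 KO cells in every alternative but not called with edgeR (2.08, adjusted p = 0.097), edgeR with TMM factors, an alternative chosen after seeing the data (1.98, adjusted p = 0.086), DESeq2 (2.22, adjusted p = 0.088), a pseudocount of 5 (0.70, adjusted p = 0.080) or the 2 groups alone (1.79, adjusted p = 0.10), and with 1 library left out it ranged from 1.46 to 2.44. The cause was not tested. Tnxb with vehicle ranged from 0.35 to 0.68 and was never called.

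The letters were used as a replicate block, with and without a variance trend. Deviations from the group means correlated between same-letter libraries by 0.35 to 0.70 in the 6 A pairs, 0.60 to 0.68 in the 6 B pairs and -0.23 to 0.14 in the 6 C pairs. A and B libraries thus shared structure, but not every pair was above 0.1 and no source says what the letter marks, so the fit without the block was kept. The replicate block called 87 genes with vehicle (71 with no variance trend), 101 with TGF-β1 (90) and 42 for the interaction (17). For the genotype difference of Tnxb with TGF-β1 it gave 1.79, with adjusted p = 1.72e-05 (limma), or 0.017 with no variance trend. These p-values depend on the variance model and rest on 0 to 5 reads per library, so nothing is read from them. The block changed no call of either tenascin. Genes called for genotype with TGF-β1, 36 as reported, came to 56 with TMM, 65 with total counts and 67 without the top 10 genes, and with 1 library left out vehicle calls ranged from 18 to 35 and interaction calls from 0 to 11, against 4 with no variance trend. Median differences over the panel moved by up to -0.23 between genotypes and -0.26 under TGF-β1 with the scaling. Counts of 0 to 5 reads limit Tnxb after TGF-β1.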
